A study of Mus musculus with 9 samples.

Results

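Fc receptors bind the constant part of antibodies and let a cell take up, answer to or carry the antibody. The 7 genes described here are the mouse Fc gamma receptor genes Fcgr1, Fcgr2b, Fcgr3 and Fcgr4, the signalling chain gene Fcer1g, and the antibody transport genes Fcgrt and Pigr. They were chosen by symbol from the count table of mouse lung. All 7 were among its 21983 gene symbols, and all 7 passed the filter on low counts that left 14739 genes for testing.

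RNA of lung tissue from BALB/c mice, an inbred strain, was sequenced in 3 groups of 3 libraries. Control mice were normal animals given saline by mouth, and asthma mice carried an asthma model, called chronic in the series title, and received saline in the same way. BSYQF mice carried the same model and received Bu-Shen-Yi-Qi formula, a mixture of Chinese herbs, by mouth at 20 g of raw herbs per kg, from day 14 and for 6 weeks. The sources used here do not give how the model was made, or the sex and age of the mice. They also do not say whether each library came from its own mouse, so the p-values below measure only the spread between libraries and that spread may be technical.

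Assigned counts per library summed to between 16286385 and 22819199. Levels are given in CPM, the usual unit of counts scaled to a common library size, and changes as log2 fold changes ± SE from edgeR's quasi-likelihood test, and a called gene is one whose p, adjusted by Benjamini-Hochberg over all genes tested, was under 0.05. The 3 comparisons share groups with each other and are not independent. Asthma replicate 3 stood apart from the other asthma libraries: the number of genes called between asthma and control was 1869 with all libraries and 4262 without it. Leaving out each of the other libraries in turn gave 171 to 2646. The leukocyte marker Ptprc (CD45) lay at 139 to 284 CPM in control, 170 to 228 in asthma and 221 to 377 in BSYQF, and the summed epithelial markers of lung at 41076 to 70545 CPM in the 9 libraries. That epithelial sum is mostly Scgb1a1 and Sftpc, with means of 28087 and 17787 CPM in control. In whole tissue, more cells of a type and more RNA per cell cannot be told apart.

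The receptors divide by what they do inside the cell. Those encoded by Fcgr1, Fcgr3 and Fcgr4 bind IgG and signal through the shared gamma chain, the product of Fcer1g, which also serves the mast cell receptor for IgE. The Fcgr2b product binds IgG complexes and inhibits, through a tyrosine motif in its own tail that recruits phosphatases. Macrophages, monocytes, neutrophils, mast cells, NK cells and B cells carry different sets of these receptors, and B cells carry Fcgr2b. The neonatal Fc receptor, encoded by Fcgrt and paired with beta 2-microglobulin, rescues IgG and albumin from breakdown in endothelium and macrophages. The polymeric immunoglobulin receptor, encoded by Pigr, carries polymeric IgA and IgM across mucosal epithelium into the fluid that lines the airways.

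The sequences that separate the inhibitory from the activating side were read from the coding sequences of GENCODE vM21. A pattern of the inhibitory type (ITIM, here isoleucine, leucine, valine or serine, any residue, tyrosine, any 2 residues, then isoleucine, leucine or valine) was found at residues 317 to 322 of the 340 encoded by the Fcgr2b transcript. A paired pattern of the activating type (ITAM, here tyrosine, any 2 residues, then leucine or isoleucine, and the same again after 6 to 8 residues) was found at residues 65 to 79 of the 86 encoded by Fcer1g. Capitals mark the codons of the pattern, with 15 bases on each side.
Fcgr2b ITIM, coding bases 934 to 981: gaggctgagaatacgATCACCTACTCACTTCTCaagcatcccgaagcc
Fcer1g ITAM, coding bases 178 to 252: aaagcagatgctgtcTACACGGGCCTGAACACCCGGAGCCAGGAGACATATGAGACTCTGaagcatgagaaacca
The short pattern is common, with a match somewhere in 48.9% of the 21562 proteins searched, and matches in other members are not named here as motifs. The paired pattern was matched in 2.86% of proteins and, among the 7 members, in Fcer1g alone. Fcgr3 held neither.

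Fcgr2b and Fcgr3 are close copies in the part that binds antibody, which bears on how their reads are told apart. Their coding sequences were identical at 83.9% of 784 aligned bases, whereas the other pairs among Fcgr1, Fcgr2b, Fcgr3 and Fcgr4 were identical at 58.6% to 63.5%. The longest identical run held 129 bases and is shown because a read inside it fits both genes.
Shared by Fcgr2b (coding bases 278 to 406) and Fcgr3 (263 to 391): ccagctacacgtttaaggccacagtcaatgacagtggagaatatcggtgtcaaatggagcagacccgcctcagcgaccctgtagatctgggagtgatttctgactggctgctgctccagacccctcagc
Of all windows of 50 bases, 17.1% of those in Fcgr2b and 22.1% of those in Fcgr3 occurred in the other gene, and the other receptor pairs shared 0. The sources used here do not say how reads that fit both genes were treated, so the counts of Fcgr2b and Fcgr3 are uncertain to that extent. Both genes lie with Fcgr4 and Fcer1g on chromosome 1 of GRCm38 (mm10), where all are protein coding: Fcgr2b at chr1:170958617-170976547 on the minus strand, Fcgr4 at chr1:171018920-171029761 on the plus strand, Fcgr3 at chr1:171051174-171064935 and Fcer1g at chr1:171229572-171234365 on the minus strand. Pigr lies at chr1:130826684-130852249 on the plus strand, Fcgr1 at chr3:96282909-96293969 and Fcgrt at chr7:45092990-45103851, both on the minus strand. An antisense gene, Gm38204, shares 155 exonic bases with Fcgr2b, and without a stated strand setting their reads cannot be told apart.

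In asthma 5 of the 7 genes were higher than in control lung. These were Pigr, Fcgr2b, Fcgr3, Fcer1g and Fcgr1, with rises from 1.23 to 2.68 on the log2 scale, and in each the 3 asthma libraries lay above the 3 control libraries. Fcgr4 and Fcgrt did not pass the test. Among all genes tested 12.7% were called in this comparison, 8.23% as higher and 4.45% as lower in asthma, and 40.4% had groups that did not overlap, 22% with asthma the higher. The median log2 fold change was 1.36 over the 7 members and 0.02 over all genes tested.

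The inhibitory receptor gene Fcgr2b had the largest fold among the members. It lay at 21.9, 18.8 and 18.6 CPM in control replicates 1, 2 and 3, at 136, 174 and 72.4 CPM in the asthma replicates, and at 127, 66.8 and 61.4 CPM in the BSYQF replicates. Every library with the model was above every control library, with asthma replicate 3 the lowest of its group. Between asthma and control the log2 fold change was 2.68 ± 0.35 (95% interval 1.92 to 3.44, edgeR adjusted p = 0.0042), from a mean of 19.8 ± 1.87 to 127 ± 51.2 CPM (SD, n = 3).

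Among the activating receptors, Fcgr3, the low-affinity IgG receptor of macrophages, neutrophils, mast cells and NK cells, rose most. Its control libraries lay at 29.1, 27.9 and 22.4 CPM, its asthma libraries at 96.6, 97.7 and 61.9 CPM, and its BSYQF libraries at 117, 61.9 and 44.2 CPM. The control libraries were again the lowest, and BSYQF replicate 1 was the highest of all 9. The log2 fold change of asthma over control was 1.69 ± 0.32 (95% interval 0.99 to 2.39, edgeR adjusted p = 0.0128). Fcer1g, whose chain that receptor needs to reach the surface, lay at 23.6, 33.3 and 26.1 CPM in control, 80.5, 88.1 and 44.1 CPM in asthma, and 80.1, 55.9 and 35.5 CPM in BSYQF. It rose by 1.36 ± 0.31 on the log2 scale in asthma (95% interval 0.67 to 2.04, edgeR adjusted p = 0.0252). In both genes asthma replicate 3 was the lowest asthma library and BSYQF replicate 3 the lowest BSYQF library.

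Fcgr1, the high-affinity IgG receptor of monocytes and macrophages, was measured with few counts. It had 85, 86 and 98 counts in the control libraries, 219, 202 and 197 in the asthma libraries and 48, 116 and 133 in the BSYQF libraries. In CPM these were 4.59, 5.03 and 5.21 in control, 12.4, 13.6 and 8.83 in asthma, and 2.91, 6.74 and 6.92 in BSYQF. The asthma libraries were the highest, and the BSYQF libraries lay on both sides of control. The log2 fold change of asthma over control was 1.23 ± 0.33 (95% interval 0.50 to 1.95, edgeR adjusted p = 0.0391).

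Fcgr4, an activating receptor of mouse monocytes, macrophages and neutrophils for IgG2 subclasses, did not follow the others. It lay at 5.84, 11.1 and 8.73 CPM in control, 9.39, 11.8 and 7.89 CPM in asthma, and 11.5, 13.9 and 10.5 CPM in BSYQF, and the 3 groups overlapped. Its log2 fold change in asthma over control was 0.18 ± 0.27 (95% interval -0.41 to 0.77, edgeR adjusted p = 0.663), an interval that leaves room for a change in either direction. The summed neutrophil markers, 6 genes that include S100a8 and S100a9, lay at 182 to 719 CPM in control, 330 to 578 in asthma and 147 to 1655 in BSYQF. Of the macrophage and monocyte markers, 11 of 16 were called higher in asthma than in control, against 8.23% of all genes. The part of either cell type in the Fcgr4 level was not tested.

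The transport genes differed from each other. Pigr had the smallest p-value of the members in asthma against control. It lay at 92.0, 91.2 and 150.2 CPM in the control libraries, at 537, 801 and 545 CPM in the asthma libraries, and at 726, 471 and 684 CPM in the BSYQF libraries, so that the lowest library with the model stood far above the highest control. Its log2 fold change was 2.50 ± 0.27 in asthma over control (5.65-fold, 95% interval 1.90 to 3.09 on the log2 scale, edgeR adjusted p = 0.00238). Fcgrt lay at 95.8, 83.2 and 94.7 CPM in control, 86.4, 109 and 119 CPM in asthma, and 109, 109 and 96.5 CPM in BSYQF. Its asthma and control libraries overlapped, and the log2 fold change was 0.20 ± 0.15 (95% interval -0.12 to 0.53, edgeR adjusted p = 0.356).

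The calls of Pigr and Fcgr2b in asthma against control were also made in each of the 9 fits that left out 1 library, whereas those of Fcgr1, Fcgr3 and Fcer1g were made in 3, 5 and 4 of the 9. Without asthma replicate 3, the library that stood apart, the same 5 members were called, with rises of 1.38 to 2.95. The calls of Fcgr1 and Fcer1g were lost without any 1 of control replicates 1, 2 and 3 and asthma replicates 1 and 2 (adjusted p = 0.0677 to 0.148), that of Fcgr3 without control replicates 2 or 3 or asthma replicates 1 or 2 (0.0543 to 0.065), and that of Fcgr1 also without BSYQF replicate 2 (0.0558) and with total counts as the only scaling (0.0556).

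**Figure D1:**
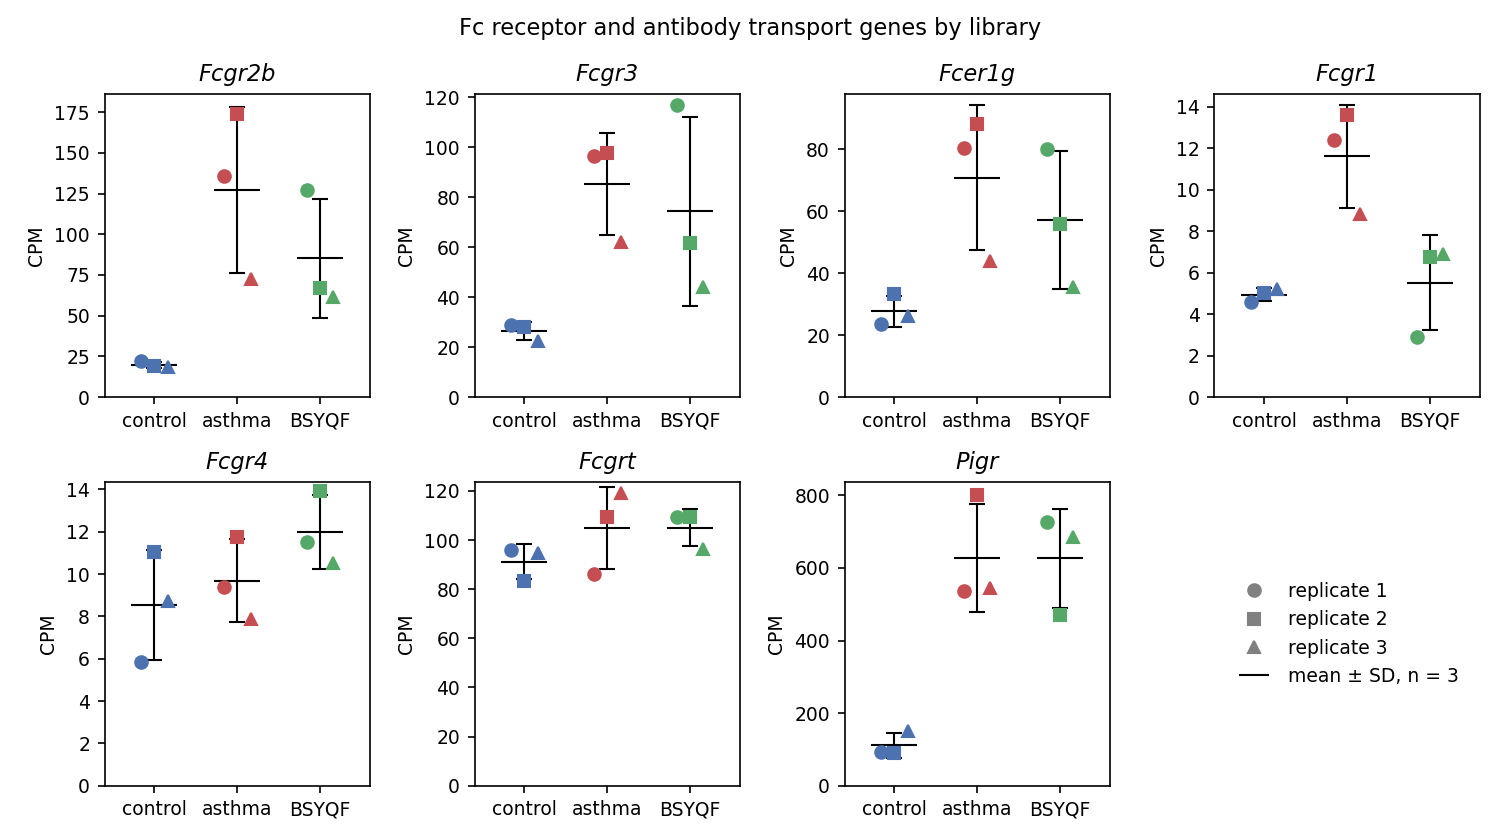
Level of each of the 7 genes in CPM on a linear axis that starts at 0, by group; points are the 9 libraries, with a shape for each replicate number, and lines are the mean and SD over 3 libraries. Fcgr2b and Pigr show control libraries well below both groups with the model, while the 3 groups of Fcgr4 overlap and those of Fcgrt lie close together.

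BSYQF treatment was compared with saline within the asthma model, the comparison that asks about the formula. No member was called by edgeR (0 of 7, with 1 at an unadjusted p under 0.05), nor by DESeq2 or limma voom. Over all genes 0.00678% were called, which is 1 gene of 14739, 7.94% had an unadjusted p under 0.05, and 9.75% had groups that did not overlap, 4.76% with BSYQF the lower. The member with the small unadjusted p was Fcgr1, with a log2 fold change of -1.07 ± 0.33 in BSYQF (95% interval -1.78 to -0.35). Its unadjusted p in edgeR's quasi-likelihood test was 0.00751 and its adjusted p = 0.513. It was also the only member whose groups did not overlap. In the library with the lowest Fcgr1 level, BSYQF replicate 1, Fcgr2b and Fcgr3 were the highest of the BSYQF group and the summed neutrophil markers the lowest, at 147 CPM against 925 and 1655 in BSYQF replicates 2 and 3. Their part in the result was not tested. Without that library the Fcgr1 estimate was -0.75 (edgeR adjusted p = 0.295), and without asthma replicate 3 it was -1.22 (adjusted p = 0.109), where 114 genes in all were called.

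For the remaining members the intervals of BSYQF minus asthma on the log2 scale were -1.29 to 0.13 for Fcgr2b (estimate -0.58), -0.88 to 0.48 for Fcgr3 (-0.20), -0.28 to 0.90 for Fcgr4 (0.31) and -0.98 to 0.36 for Fcer1g (-0.31). Fcgrt had an estimate of 0.0024 with an interval of -0.32 to 0.33, and Pigr one of -0.0019 with -0.56 to 0.56. Every one of these intervals contains 0. The mean of Pigr was 628 ± 149.9 CPM in asthma and 627 ± 137 CPM in BSYQF (SD, n = 3). The median log2 fold change was -0.20 over the 7 members and -0.0048 over all genes tested.

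BSYQF against control asks what remained different from normal lung. Of the 7 members 3 were called, all higher, against 1.67% of all genes called and 1.63% called higher, and 5 members had groups that did not overlap, against 24.8% of all genes, 13% with BSYQF the higher. Pigr was higher by 2.50 ± 0.27 on the log2 scale (95% interval 1.90 to 3.09, edgeR adjusted p = 0.00506), Fcgr2b by 2.11 ± 0.34 (1.36 to 2.85, adjusted p = 0.0161) and Fcgr3 by 1.49 ± 0.32 (0.79 to 2.19, adjusted p = 0.0421). Fcer1g, at 1.05 ± 0.31 (0.36 to 1.73), did not pass in edgeR (adjusted p = 0.131) and passed in DESeq2 (log2 fold change 1.03, adjusted p = 0.0294). Fcgr1, Fcgr4 and Fcgrt had estimates of 0.16, 0.49 and 0.20 and edgeR adjusted p-values of 0.842, 0.402 and 0.526. The BSYQF libraries of Fcgrt, at 96.5 to 109 CPM, lay just above the control libraries, at 83.2 to 95.8 CPM. The call of Pigr was made in all 9 fits that left out a library, that of Fcgr2b in 6 (lost without any 1 of the control libraries, adjusted p = 0.0586 to 0.0998) and that of Fcgr3 in 2 of 9, and with limma voom Fcgr3 did not pass (adjusted p = 0.0998).

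**Figure D2:**
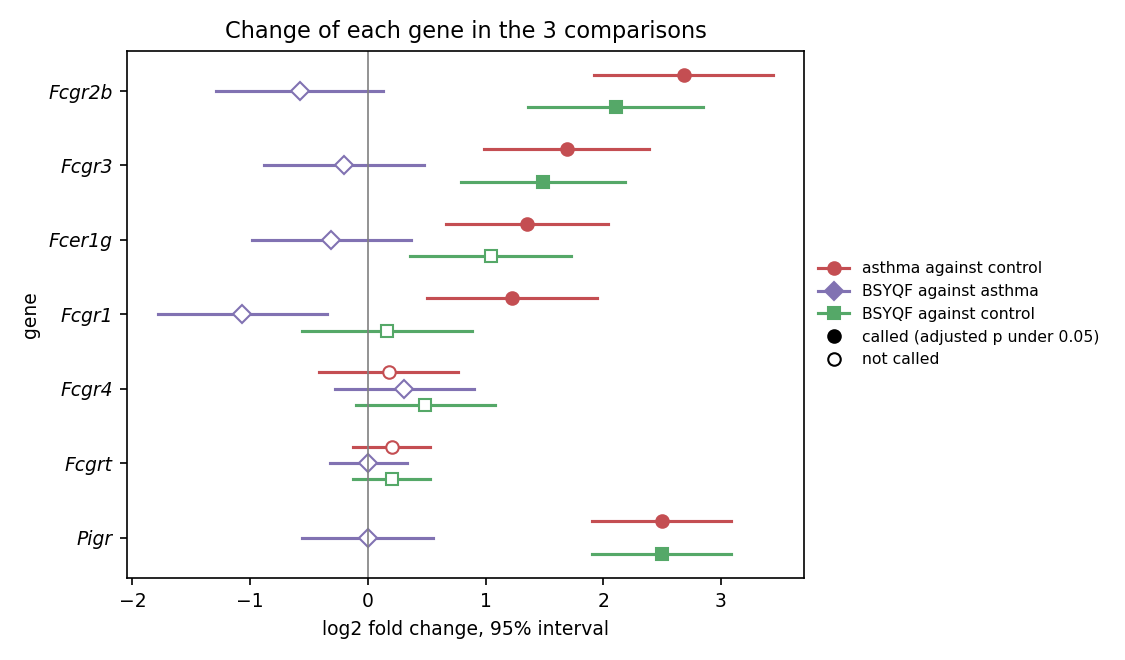
Log2 fold change of each of the 7 genes in the 3 comparisons, with the 95% interval from edgeR; filled points are called at an adjusted p under 0.05 and the vertical line marks 0. The asthma and BSYQF points against control lie to the right for Pigr, Fcgr2b and Fcgr3, and the intervals of BSYQF against asthma cross 0 for all but Fcgr1.

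Per length of the gene's joined exons, the transport gene Fcgrt was the highest of the members in control lung, at 43.4 ± 3.32 CPM per kb (range 39.6 to 45.6), above Fcer1g (27.0 to 38.2) and Pigr (22.7 to 37.3), whose ranges overlapped. Fcgr3 (12.9 to 16.7), Fcgr4 (4.65 to 8.80), Fcgr2b (3.21 to 3.79) and Fcgr1 (1.77 to 2.01) followed without overlap. In asthma Pigr came first, at 133 to 199 CPM per kb, and Fcer1g (50.4 to 101), Fcgrt (41.1 to 56.6) and Fcgr3 (35.7 to 56.3) overlapped below it. Fcgr2b at 12.5 to 30.0, Fcgr4 at 6.28 to 9.37 and Fcgr1 at 3.41 to 5.24 CPM per kb came next. In BSYQF Pigr was again first (117 to 180), with Fcer1g, Fcgrt and Fcgr3 overlapping at 25.5 to 91.7. Fcgr2b (10.6 to 21.99) overlapped Fcgr4 (8.37 to 11.1) there, and Fcgr1 was last (1.12 to 2.67). The place of Fcgr2b depends on the length used: its joined exons span 5.79 kb and its principal transcript 1.578 kb, and with the latter its means were 12.5, 80.6 and 54.0 CPM per kb in control, asthma and BSYQF.

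Inhibitory and activating receptors were set against each other within each library, which removes library size. The log2 level of Fcgr1, Fcgr3 and Fcgr4, averaged, minus that of Fcgr2b was -1.24, -0.69 and -0.87 in the control libraries, -2.59, -2.79 and -2.14 in asthma and -2.99, -1.88 and -2.04 in BSYQF. Each library with the model lay below each control library, so in these libraries Fcgr2b RNA was higher relative to the activating receptor genes. The ratio restates the fold changes above, and in whole tissue it cannot be read as a balance within cells. The difference of asthma minus control was -1.57 (exact two-sided permutation p = 0.1, the smallest that 3 against 3 libraries can give, Benjamini-Hochberg adjusted 0.188 over the 45 ratio comparisons made). For BSYQF minus asthma it was 0.20 (exact permutation p = 0.7), and for BSYQF minus control -1.37 (exact permutation p = 0.1). The ratio of Fcgr3 to Fcgr2b was 0.40, 0.56 and 0.27 in control, -0.49, -0.83 and -0.22 in asthma, and -0.12, -0.11 and -0.47 in BSYQF on the log2 scale. It fell by 0.93 from control to asthma, with no overlap. This ratio rests on the pair of genes that share sequence, and it and the ratios that follow were chosen after the values were seen.

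Relative to the epithelial adhesion gene Epcam, Pigr was higher by 1.94 in asthma and by 2.29 in BSYQF than in control, again without overlap. Relative to Jchain, whose product joins the IgA and IgM that the receptor carries, Pigr lay at -1.30, 0.98 and 1.07 on the log2 scale in the control libraries and at -2.26, -2.10 and -2.25 in the asthma libraries. Control replicate 1 stood apart, and the difference of asthma minus control was -2.45 with it and -3.23 without it, an alternative added after seeing the data. For BSYQF minus control these values were -2.77 and -3.54. All these comparisons reach at best the exact permutation p of 0.1.

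**Figure D3:**
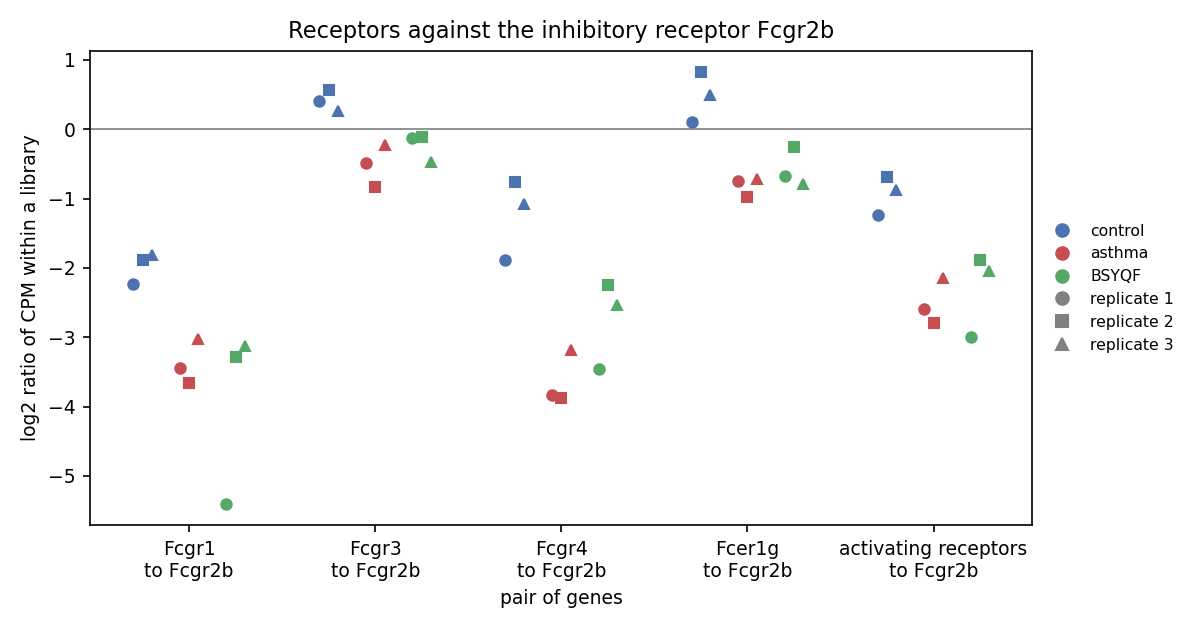
Log2 ratio of Fcgr1, Fcgr3, Fcgr4, Fcer1g and the averaged activating receptors to Fcgr2b within each library; points are single libraries, with a colour for each group and a shape for each replicate number. Each ratio is lower in the asthma and BSYQF libraries than in the control libraries.

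The other genes of the antibody pathway are given by list. Over all genes tested, edgeR called 8.23% higher and 4.45% lower in asthma against control, and 1.63% higher in BSYQF against control. Of 12 other Fc receptors and receptor-like genes, 11 were tested and 2 rose in asthma: Fcrlb, from 0.202 to 4.72 CPM (log2 fold change 4.49 ± 0.77, edgeR adjusted p = 0.0101), and Fcamr, the receptor for IgA and IgM, from 2.06 to 8.04 CPM (1.96 ± 0.38, adjusted p = 0.0139). The same 2 genes were called in BSYQF against control, at 3.61 and 2.35. DESeq2 called 3 genes of the list there and limma voom 0, so both calls are lost with limma voom. The control mean of Fcrlb is at the level of 3 counts in a library (0.134 to 0.202 CPM), so its fitted fold depends on the prior count. Fcrl5 (1.68) and Trim21, a cytosolic antibody receptor (-0.43), did not pass (adjusted p = 0.139 and 0.146). Of 18 signalling genes downstream of the receptors, 6 rose in asthma and 0 fell. In BSYQF against control 0 were called by edgeR, with 10 at an unadjusted p under 0.05, 7 called by DESeq2 and 0 by limma voom. There DESeq2 called 810 of 15246 genes and limma voom 90 of 14739. The share of all genes at that unadjusted p is not given here. The 4 signalling genes with the smallest p in asthma against control were Lat2 (1.87), the exchange factor Vav1 (1.46), the kinase Btk (1.37) and the adaptor Lcp2 (0.91). The list's median was 0.51, against 0.02 over all genes tested.

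Of 20 antibody and antibody assembly genes, 9 were tested and 11, among them the heavy-chain constant genes and Igkc, are not analysed here. In asthma 7 of the 9 rose and 0 fell, with Jchain at 115 CPM in control and 2861 in asthma (log2 fold change 4.64), Mzb1 at 3.90, Derl3 at 3.38 and Iglc2 at 1.63. In BSYQF against control 6 of the 9 were called. The summed level of the list was 640 to 818 CPM in control, 3451 to 4840 in asthma and 4490 to 4782 in BSYQF. Of 10 genes of receptor transport, the Rab proteins, the motor Myo5b, the kinase Yes1, albumin and the partner of the neonatal receptor, 0 were called in any of the 3 comparisons by edgeR or limma voom. DESeq2 called 1 in asthma against control, where 1 had an unadjusted p under 0.05 in edgeR. Myo5b came nearest in asthma against control (-0.74, adjusted p = 0.0739). B2m, the light chain of the neonatal Fc receptor, was named after its value was seen and differed by 0.03 on the log2 scale (edgeR adjusted p = 0.914).

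Markers of the cells that carry these receptors were measured beside them. The counts below stand against 8.23% of all genes called higher and 4.45% called lower by edgeR in asthma against control. In BSYQF against control 1.63% of all genes were called higher. Of 16 macrophage and monocyte markers, 11 rose in asthma and 0 fell, led by C1qb (1.97), Cd14 (2.05), C1qc (2.12) and C1qa (1.99), and 5 rose in BSYQF against control. The summed level of the list, 4838 to 6269 CPM in control, 5446 to 8814 in asthma and 7128 to 8492 in BSYQF, overlapped between control and asthma, but it is mostly Lyz2 (4851 CPM in control and 5452 in asthma, log2 fold change 0.17, not called). Of the 16 genes, 12 had every asthma library above every control library, against 22% of all genes tested. The 4 genes named rose more than Fcgr3 (1.69), Fcer1g (1.36) and Fcgr1 (1.23) and less than Fcgr2b (2.68). The median over the 16 markers was 1.52, between Fcer1g and Fcgr3. The other called markers, named after their values were seen, lay on both sides of Fcgr3. Ly6c2 (2.38) and Cd68 (2.10) rose more, and Mrc1 (1.64), Itgam (1.63), Ccr2 (1.41), Adgre1 (1.25) and Cx3cr1 (1.08) rose less. Csf1r, Mertk, Lyz2, Siglecf and Marco were not called, at 0.26, -0.40, 0.17, 0.09 and -0.03, and were named after their values were seen. In asthma against control 0 of 6 B cell, 0 of 6 neutrophil and 0 of 5 NK cell markers were called by edgeR, DESeq2 or limma voom, and 0 had an unadjusted p under 0.05. In BSYQF against control edgeR called 0 of them, while 5, 2 and 1 had an unadjusted p under 0.05 and DESeq2 called 3, 1 and 0. The share of all genes at that unadjusted p is not given here for BSYQF against control. Of 6 mast cell markers Tpsab1 was called higher in asthma by edgeR (8.62 ± 7.38 against 0.705 ± 0.288 CPM, SD, n = 3; edgeR adjusted p = 0.0444), and limma voom called 0 of the 6. Kit, on the same list, had a log2 fold change of -0.63 (edgeR adjusted p = 0.0797), with the asthma libraries below the control libraries. Of 11 epithelial markers Epcam (0.57, adjusted p = 0.0299) and Foxj1 (0.86, adjusted p = 0.0394) rose, and of 6 endothelial markers Kdr fell by 1.29. In BSYQF against asthma 0 of the 104 tested genes on all lists were called by edgeR, DESeq2 or limma voom. Of the 104, 8 had an unadjusted p under 0.05 in edgeR, a share close to the 7.94% of all genes tested. The part of these changes in the receptor levels was not tested.

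**Figure D4:**
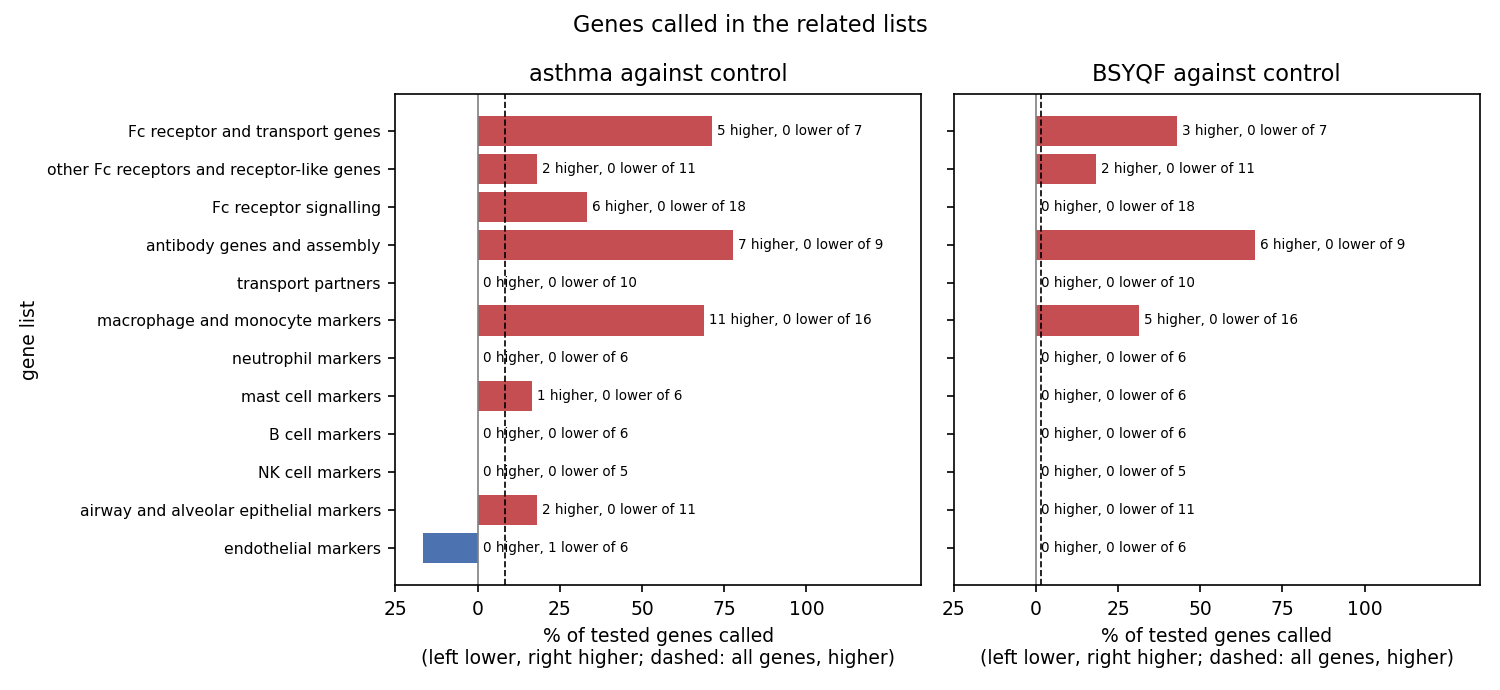
Share of the tested genes of each list that were called, in percent, with higher genes to the right of 0 and lower genes to the left, in asthma against control and BSYQF against control; dashed lines give the share of all genes called higher. The antibody genes (7 of 9 and 6 of 9) and the macrophage and monocyte markers (11 of 16 and 5 of 16) have long bars, and the transport partners have none.

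For each member the genes with the most similar pattern were found by the root mean square distance of centred log2 CPM over the 9 libraries, among 13662 genes. They were Ccl22 (0.169), Fignl1 (0.197) and Sdf2l1 (0.216) for Fcgr2b, Capg (0.144), Ctsz (0.156) and Acp5 (0.156) for Fcgr3, and Pkib (0.116), Tmem26 (0.141) and Cyba (0.146) for Fcer1g. For Pigr they were Ccna2 (0.279), Ccr10 (0.317) and B4galnt4 (0.331), and for Fcgr1 Sorcs2 (0.237), Krt87 (0.240) and Mybpc2 (0.261). Dusp5 (0.0983) was nearest to Fcgr4 and Acsl3 (0.0654) to Fcgrt, whose levels varied least. Among the members, Fcer1g and Fcgr3 were the closest pair (0.262).

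The promoters of the members were searched for short motifs, in RefSeq windows of 250 bases before and 50 after each gene's start on GRCm38.p6, which held an entry for all 7 genes. Both strands were searched. GAGGAA, the core that the myeloid factor PU.1 recognises, was found in Fcgr1, Fcgr3 and Fcgr4 (3 of 7, against 28.3% of 27025 promoters). TTCNNNGAA, the form of a STAT site, was found in Fcgr1 and Pigr (2 of 7, against 8.47%), the paired GAAA of interferon response elements, on 1 strand with 2 bases between them, in Fcgr4 (1 of 7, against 3.49%), and CACGTG, the E-box that upstream stimulatory factors bind, in Pigr (1 of 7, against 7.24%). The STAT form with 4 bases between TTC and GAA was found in 0 of 7, against 6.99%. Promoters with a match before the start are shown, since they belong to Pigr and Fcgr1, which rose in asthma, and to Fcgr4, which was not called. Bases inside annotated exons are left out, and capitals mark the matches, TTCCTC being GAGGAA on the other strand.
Pigr, chr1:130826434-130826683, plus strand: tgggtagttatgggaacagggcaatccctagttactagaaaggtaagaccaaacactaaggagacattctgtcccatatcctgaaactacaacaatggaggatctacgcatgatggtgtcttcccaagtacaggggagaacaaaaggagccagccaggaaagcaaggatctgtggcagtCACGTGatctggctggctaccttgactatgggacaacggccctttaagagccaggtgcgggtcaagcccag
Fcgr1, chr3:96293970-96294219, minus strand: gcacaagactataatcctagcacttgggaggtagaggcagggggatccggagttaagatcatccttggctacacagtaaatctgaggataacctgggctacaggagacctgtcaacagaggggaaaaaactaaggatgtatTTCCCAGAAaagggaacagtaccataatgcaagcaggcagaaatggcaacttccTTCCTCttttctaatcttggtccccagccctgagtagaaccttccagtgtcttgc
Fcgr4, chr1:171018676-171018919, plus strand: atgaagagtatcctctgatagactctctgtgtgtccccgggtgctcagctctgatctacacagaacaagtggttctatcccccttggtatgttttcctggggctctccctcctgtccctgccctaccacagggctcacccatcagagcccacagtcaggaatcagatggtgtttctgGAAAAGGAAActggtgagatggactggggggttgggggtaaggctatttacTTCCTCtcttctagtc
The CACGTG of Pigr lay at -71 to -66 from the start, and its TTCNNNGAA match lay after the start and is not shown. The Fcgr3 window, the first of 2 entries, begins inside an exon of a longer Fcgr3 transcript and is not shown. The Fcgr2b window, which held no match, also begins inside an annotated exon of its own gene. For both genes the start used lies inside the annotated gene, and both are included in the counts out of 7. No match overlapped another. A match is a description of the letters and no evidence of binding, and the share of all promoters is given for that reason. Fcgr1 and Fcgr4 both held the GAGGAA core, and Fcgr1 rose in asthma while Fcgr4 was not called. The part of the core in these levels was not tested.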

How the data were processed

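Per the labels' protocols, RNA was isolated with Trizol, and 3 ug per library was prepared with NEBNext Ultra reagents. Tools named in the submitters' processing notes are FastQC, cutadapt, STAR, HTSeq and DESeq2, with the build mm10 and no versions. The sources used here do not give the strand setting. Raw counts per gene, as the authors deposited them, were tested. The authors also deposited tables with log2 fold changes and p-values for 3 comparisons, which also hold 36 columns of library values that were not used here. The authors' deposited tables hold only genes whose unadjusted p is below 0.05 and whose change is 1 or more on the log2 scale, in either direction. Of the members, 5 were among the 1746 genes listed for asthma against control and 4 among the 896 for BSYQF against control. For BSYQF against asthma 1 member (Fcgr1) was among the 424 genes listed. Its adjusted p in the authors' deposited table is 0.397.

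Counts were filtered (filterByExpr), scaled by TMM (factors 0.914 to 1.07) and fitted in 1 model of the 3 groups with edgeR 4.0.16 in R 4.3.3 (robust glmQLFit, glmQLFTest, adjusted p under 0.05 over 14739 genes), which was tested on simulated data. Alternatives were DESeq2 1.42.0, limma 3.58.1 voom, other scalings and filters, and leaving out each library. The SE is the fold change divided by the square root of F. The 95% interval uses the model's degrees of freedom. 3 counts equal 0.134 to 0.202 CPM. Members were all named, and of other lists the 4 smallest p-values in asthma against control. The members and lists were chosen with earlier results of these data known. GENCODE vM21 matched 21926 of 21983 symbols.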

Additional observations from a re-analysis of the deposited data

How the results depend on the processing

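With each library left out in turn, the number of members called ranged from 2 to 5 in asthma against control and from 1 to 3 in BSYQF against control. It was 0 in BSYQF against asthma in all these fits. Estimates near 0 changed sign. For Pigr in BSYQF against asthma these were 0.0090 with DESeq2's size factors in edgeR, 0.078 with total counts, 0.0093 with DESeq2 and 0.022 with only the 2 groups compared, and -0.11 to 0.22 with a library left out. With a library left out the ranges were -0.033 to 0.41 for Fcgr4 in asthma against control, -0.11 to 0.11 for Fcgrt and -0.68 to 0.066 for Fcgr3 in BSYQF against asthma, -0.036 to 0.46 for Fcgr1 in BSYQF against control, and -0.013 to 0.54 for the ratio of activating receptors to Fcgr2b in BSYQF against asthma. The cause was not tested.

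The labels number the replicates, give each library its own identifier and state no pairing of the libraries. Same-numbered libraries correlated at -0.259 to 0.339 in their deviations from the group means, 2 of 9 pairs above 0.1. Libraries of different groups with different numbers correlated at -0.428 to 0.368. With 3 libraries a group these correlations cannot exclude a pairing. With a replicate block 5, 0 and 3 members were called, as without it, and over all genes 1469, 15 and 237. Over all genes DESeq2 called 3212, 125 and 810 and limma voom 1278, 0 and 90 in the same order, against 1869, 1 and 246. The level per kb by principal transcript was an alternative chosen after seeing the data. With 3 libraries a group, a ratio cannot pass an exact test at 0.05.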
